A study of Mus musculus with 8 samples.

Results

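Chromatin accessibility was examined at 10 genes of the p53 pathway and its cell-cycle arm in mouse squamous cell carcinoma (SCC) cells: Trp53, Mdm2, Mdm4, Cdkn1a, Ccng1, Bax, Bbc3, Gdf15, Cdkn2a and Cdkn2b. Every ATAC-seq peak that overlapped one of these gene bodies or the 10 kb upstream of it was taken, and peaks of different libraries that shared at least 1 bp were merged into regions. This gave 20 member regions made of 112 peaks, out of 69399 regions made of 299328 peaks in all 8 libraries. Mdm4 had 5 regions, Mdm2, Bax and Bbc3 had 3 each, Trp53 and Ccng1 had 2 each, and Cdkn1a and Gdf15 had 1 each. No peak was called at Cdkn2a or Cdkn2b in any library. Regions are named below by their gene and by the distance in kb from its annotated 5' start to the centre of the region, negative upstream.

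ATAC-seq cuts accessible DNA with the Tn5 transposase, and the regions where cuts pile up are called as peaks. The SCC cells came from tumours that DMBA and TPA had induced in the skin of K14CreER FAK flox/flox FVB mice, with Ha-Ras as the driver gene. Focal adhesion kinase (FAK, encoded by Ptk2) was deleted in culture with 4-hydroxytamoxifen, which gave the FAK-/- line. One FAK-/- clone was then given, by retrovirus, wild-type FAK (FAK-WT), FAK whose nuclear localisation sequence carries the changes R216A and R218A, R190A and R191A, and R177A and R178A (FAK-nls) or kinase-deficient FAK (FAK-kd; K454R), so all lines share the floxed background and the deletion, and all constructs were expressed in the same clone. Each of the 4 lines had 2 replicates. FAK is known to enter the nucleus and to bind p53, and the comparisons ask whether accessibility at the genes that regulate p53, or are regulated by it, differed between cells with wild-type FAK and cells with no FAK or with a mutant.

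p53 is a transcription factor that binds paired half-sites in DNA and is activated by stress and DNA damage. Mdm2 is a ubiquitin ligase that degrades p53 and is itself induced by p53, and Mdm4 is its relative that blocks p53 activity. Among the genes that p53 induces, Cdkn1a encodes the cyclin-dependent kinase inhibitor p21, Ccng1 encodes cyclin G1, Bax and Bbc3 (PUMA) drive mitochondrial apoptosis, and Gdf15 encodes a secreted stress cytokine. Cdkn2a encodes p16Ink4a and p19Arf, the second of which inhibits Mdm2, and its neighbour Cdkn2b encodes p15Ink4b.

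A search for full p53 elements found 17 in the windows of the 10 genes. An element here is a pair of p53 half-sites of 10 bases each, at most 1 base apart, with at most 2 mismatches in all and with the core C and G of each half-site kept. It reads the same way on both strands, so one search covers both. Of these 17 elements, 6 (35.3%) lay in a called region, against 3.47% of the 29131 elements in the windows of all protein-coding genes. The genes were chosen for the p53 pathway and several are induced by p53, so this share is not independent of that choice. It counts merged regions, and the Bax element at -191 bp was covered by a peak in 1 library. The following stretches were taken from the RefSeq sequence of GRCm38, which is the build called mm10, on the strand of the gene and with the element in capitals. They are shown because peaks covered them in all, some or none of the libraries. The reference strain is C57BL/6J and the cells are FVB, so the bases of the cells themselves were not read here.
Mdm2, chr10:117717666-117717815, minus strand, covered by a peak in 8 of 8 libraries: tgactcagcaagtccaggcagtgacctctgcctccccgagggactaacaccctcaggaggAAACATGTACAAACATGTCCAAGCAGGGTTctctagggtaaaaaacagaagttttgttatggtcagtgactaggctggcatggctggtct
Mdm4, chr1:133020235-133020384, minus strand, covered in 4 of 8 libraries: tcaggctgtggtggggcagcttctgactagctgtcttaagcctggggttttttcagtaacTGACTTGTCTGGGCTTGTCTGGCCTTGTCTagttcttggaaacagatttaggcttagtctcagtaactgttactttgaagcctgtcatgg
Ccng1, chr11:40755402-40755541, minus strand, covered in 8 of 8 libraries: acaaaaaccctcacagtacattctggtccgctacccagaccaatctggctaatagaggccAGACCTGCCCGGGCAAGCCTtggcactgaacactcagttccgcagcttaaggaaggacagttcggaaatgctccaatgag
Cdkn1a, chr17:29090868-29090978, plus strand, covered in 0 of 8 libraries: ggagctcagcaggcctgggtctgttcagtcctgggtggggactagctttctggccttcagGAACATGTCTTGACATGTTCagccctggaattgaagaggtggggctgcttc
The Mdm2 and Mdm4 elements are runs of 30 bases made of 2 overlapping matches, so that 3 half-sites follow each other. The Ccng1 and Cdkn1a elements are single pairs of 20 bases. All 4 have 1 mismatch at best.

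The libraries differed in how much was called in them. The deposited lists held between 24402 and 53728 peaks, and the FAK-nls libraries had the fewest, 24402 and 24974, while the other 6 had at least 32961. The median pileup of a peak, which is its read coverage, was 8.94 and 8.82 in the FAK-nls libraries and between 11.3 and 13.0 in the other 6. The lists give no read counts per region, so no count model was run, and read totals per library were not used here. The label of keratinocyte-derived SCC was compared with marker promoters: of 10 keratinocyte genes, Itga6 had a promoter peak in all 8 libraries, 5 had one in between 1 and 5 libraries (Krt14 in 1), and Krt5, Krt15, Trp63 and Dsp had none in any library, although Krt5 and Trp63 had a region elsewhere in their windows. The promoters of 3 of 5 fibroblast genes (Col1a1, Col1a2 and Pdgfra) were called in all 8. A promoter peak in any library was found for 2 of 4 endothelial, 1 of 5 immune and 1 of 4 melanocyte markers, and of these 4 only Pmel was called in all 8, through a region that is also the promoter region of its neighbour Cdk2.

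Of the 20 member regions, 8 (40.0%) were called in all 8 libraries, compared with 25.8% of all regions, and 4 were called in a single library, as were 28.6% of all regions. Promoter regions, defined as overlapping the stretch from 500 bp before to 2000 bp after an annotated start of the gene, were called in all 8 libraries in 6 of 10 cases, and other member regions in 2 of 10. A region counts here as a whole: where each library's own peak had to reach the promoter stretch, 5 of the 10 met it in all 8 libraries (Trp53 -0.6 kb in 3), beside 56.1% of all promoter regions. Of all regions, 57.1% of those at a protein-coding promoter and 17.2% of the others were called in all 8. Another 8 regions were called in between 4 and 6 libraries, and 7 of these 8 had no peak in either FAK-nls library, against 67.7% of all 31666 regions that were called in more than 1 and fewer than 8 libraries. FAK-WT had 17 and 15 member regions, FAK-/- had 16 and 12, FAK-nls had 9 and 8, and FAK-kd had 12 and 18. Of all regions, the same libraries held 77.0% and 55.9%, 61.7% and 50.4%, 34.9% and 35.7%, and 47.1% and 65.8%, so the FAK-nls libraries had the fewest calls among the members and genome-wide.

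**Figure D1:**
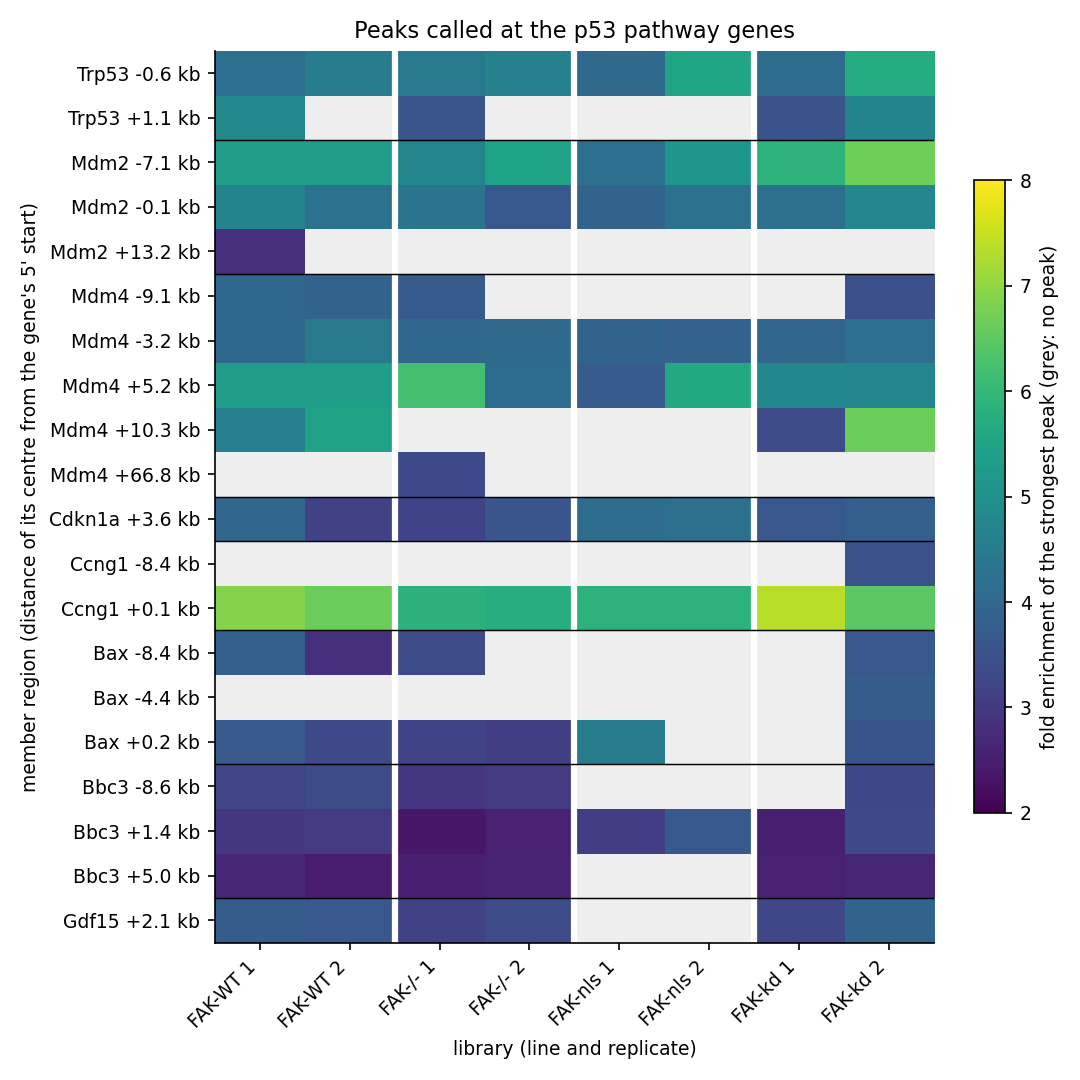
Fold enrichment of the strongest peak (colour, pileup over local background) at each of the 20 member regions (rows) in each of the 8 libraries (columns, grouped by line); grey means that no peak was called. The 8 rows filled across all columns are the regions called everywhere, and 7 of the 8 rows called in 4 to 6 libraries, like the 4 rows called in a single library, are grey in both FAK-nls columns.

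Trp53 had a peak just upstream of its start in every library. The merged region Trp53 -0.6 kb (chr11:69579008-69580475) reaches over 3 annotated starts of Trp53 and overlaps Wrap53, a neighbour transcribed in the opposite direction. The peaks of FAK-WT replicate 1 and FAK-/- replicate 1 covered a Trp53 start, while that of FAK-kd replicate 1 ended 305 bp and those of the other 5 libraries between 763 and 856 bp before the first one. Its fold enrichment, the average pileup over the local background of the same library, was 4.20 and 4.53 in FAK-WT, 4.43 and 4.63 in FAK-/-, 4.09 and 5.55 in FAK-nls, and 4.12 and 5.71 in FAK-kd. The 4 lines overlapped, and the replicates of FAK-nls and of FAK-kd differed by more than any pair of line means. Ranked by -log10 p within its own list, this peak stood at a median of 26.8% of the list from the top, and at 14.6% at its best. An intronic region at Trp53 +1.1 kb (chr11:69581324-69581691) was called in 1 FAK-WT, 1 FAK-/- and both FAK-kd libraries, with fold enrichments of 4.83, 3.59, 3.52 and 4.72, and in neither FAK-nls library. A p53 element at -3642 bp from the Trp53 start had no peak over it in any library and lay 2281 bp from the nearest region.

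Mdm2 carried the strongest peak outside a promoter. The region Mdm2 -7.1 kb (chr10:117717540-117718196) is intergenic, 27074 bp from the start of the nearest other gene, Slc35e3, and holds the 3 half-sites printed above. It was called in all 8 libraries, with fold enrichments of 5.35 and 5.37 in FAK-WT, 4.76 and 5.49 in FAK-/-, 4.19 and 5.15 in FAK-nls, and 5.88 and 6.67 in FAK-kd. Both FAK-kd libraries were above the other 6, and FAK-nls replicate 1 was the lowest. The peak stood in the top 2.72% of its list in FAK-kd replicate 2 and in the top 28.2% in FAK-nls replicate 1, with a median of 8.09%. Among the 9383 regions outside promoters that were called in all 8 libraries, 60.8% had a lower mean log2 fold enrichment.

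At the Mdm2 start itself, the region Mdm2 -0.1 kb (chr10:117709844-117711842) covers 7 annotated starts. Its fold enrichment was 4.72 and 4.24 in FAK-WT, 4.30 and 3.64 in FAK-/-, 3.94 and 4.25 in FAK-nls, and 4.20 and 4.78 in FAK-kd, so all lines overlapped. The called width ranged from 965 bp in FAK-nls replicate 2 to 1938 bp in FAK-kd replicate 2. A further Mdm2 region at +13.2 kb was a peak of 200 bp in FAK-WT replicate 1 alone, with a fold enrichment of 2.83, and it stood at 99.8% of its list by -log10 p. The second p53 element of the gene, in its body, had no peak in any library.

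Mdm4, the longest of the genes at 71078 bp, held 5 regions, of which 2 were called everywhere. The region Mdm4 +5.2 kb (chr1:133024972-133025745) covers 7 annotated starts of the gene. Its fold enrichment was 5.37 and 5.34 in FAK-WT, 6.24 and 4.13 in FAK-/-, 3.71 and 5.63 in FAK-nls, and 4.79 and 4.76 in FAK-kd. The replicates of FAK-/- and of FAK-nls differed by more than any of the line means did. The upstream region Mdm4 -3.2 kb (chr1:133033069-133034484) was narrow in its range, between 3.89 and 4.43 in all 8 libraries.

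The region Mdm4 +10.3 kb (chr1:133020123-133020496) is an intronic stretch of 374 bp around the 3 half-sites printed above. Its fold enrichment was 4.58 and 5.45 in FAK-WT and 3.40 and 6.66 in FAK-kd. No FAK-/- and no FAK-nls library had a peak there. By -log10 p the peak stood at 58.3% and 27.0% of the FAK-WT lists and at 90.5% and 18.3% of the FAK-kd lists, and by fold enrichment at 46.1% and 15.5% and at 82.2% and 9.96%. When only the 24383 strongest peaks of every library were kept, it remained in 1 FAK-WT and 1 FAK-kd library. The region Mdm4 -9.1 kb (chr1:133039448-133039952), nearer to Pik3c2b, had peaks in FAK-WT replicates 1 and 2 (4.00 and 3.91), 1 FAK-/- library (3.70) and 1 FAK-kd library (3.46). Mdm4 +66.8 kb was a peak of 200 bp in FAK-/- replicate 1 alone, with a fold enrichment of 3.33. The other 4 p53 elements of Mdm4 had no peak over them.

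Cdkn1a was called at an internal start and not at its first annotated start. The region Cdkn1a +3.6 kb (chr17:29093413-29095783) spans 2371 bp and covers 2 annotated starts of the gene. Fold enrichment of its strongest peak was 3.97 and 3.18 in FAK-WT, 3.20 and 3.59 in FAK-/-, 4.16 and 4.22 in FAK-nls, and 3.63 and 3.81 in FAK-kd. Both FAK-nls libraries were above the other 6 on this measure, but the strongest peak was not the same one in every library. In 5 libraries the region was split into a peak over the internal starts and one further into the gene, and the strongest was the first of these in FAK-WT replicate 1 and FAK-kd replicate 1 and the second in FAK-/- replicate 2 and both FAK-nls libraries. The peak over the internal starts was 3.97 and 3.18 in FAK-WT, 3.20 and 3.12 in FAK-/-, 3.56 and 3.71 in FAK-nls, and 3.63 and 3.81 in FAK-kd, so that FAK-nls lay within the range of the others there. At the second position it was 3.73 and 3.18 in FAK-WT (replicate 2 had a single peak over both positions) and 4.16 and 4.22 in FAK-nls. The called length of the FAK-nls libraries in the region was the shortest, 587 and 624 bp against 923 to 2166 bp in the other 6. The pileup of their strongest peak was also the lowest, 11.2 and 10.4 against 15.9 to 18.0, so that before centring fold enrichment and coverage ran in opposite directions here. The p53 element printed above, at -39 bp from the first start, lay 2466 bp from this region and was not covered in any library.

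Ccng1 had the strongest peak of all members. The region Ccng1 +0.1 kb (chr11:40754576-40755781) covers the start of the gene, and its fold enrichment was 6.89 and 6.65 in FAK-WT, 5.85 and 5.75 in FAK-/-, 5.87 and 5.88 in FAK-nls, and 7.36 and 6.46 in FAK-kd. On this scale, before centring, both FAK-WT and both FAK-kd libraries were above all 4 FAK-/- and FAK-nls libraries. On log2 fold enrichment centred on each library's median the lines overlapped, with 0.30 and 0.46 in FAK-WT, 0.23 and 0.30 in FAK-/-, 0.38 and 0.33 in FAK-nls, and 0.65 and 0.22 in FAK-kd. The peak stood in the top 1.18% to 8.68% of every list, and 91.7% of the 8534 promoter regions called in all 8 libraries had a lower mean log2 fold enrichment. It held 2 p53 elements, at -160 bp and 366 bp from the start, and both were covered in all 8 libraries. Ccng1 -8.4 kb was a peak of 200 bp in FAK-kd replicate 2 alone.

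At the apoptosis gene Bax, fold enrichment lay between 2.85 and 4.55 over its 3 regions. At the Bax start, Bax +0.2 kb (chr7:45466312-45467139) was called in 6 libraries, with fold enrichments of 3.69 and 3.31 in FAK-WT, 3.21 and 3.12 in FAK-/-, 4.55 in FAK-nls replicate 1 and 3.57 in FAK-kd replicate 2. A p53 element 315 bp into Bax, in an exon with untranslated sequence, was covered by all 6 of these peaks, and another element at -191 bp was covered in 1 library. Bax -8.4 kb (chr7:45475023-45475653), inside the neighbour Dhdh, had peaks in FAK-WT replicates 1 and 2 (3.83 and 2.85), FAK-/- replicate 1 (3.37) and FAK-kd replicate 2 (3.64). Bax -4.4 kb was called in FAK-kd replicate 2 alone. In FAK-nls replicate 2 and FAK-kd replicate 1 no Bax region was called at all.

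Fold enrichment at the 3 regions of Bbc3 lay between 2.37 and 3.66. Bbc3 +1.4 kb (chr7:16309124-16310427), a region over an annotated start, was called in every library, with fold enrichments of 2.94 and 3.03 in FAK-WT, 2.37 and 2.55 in FAK-/-, 3.09 and 3.66 in FAK-nls, and 2.52 and 3.33 in FAK-kd. The peak of FAK-nls replicate 2 was 201 bp long, did not cover that start and did not overlap the peak of FAK-WT replicate 2, so no base of this region was called in all 8 libraries, as in 1.03% of the regions called in all 8. Only 0.152% of the promoter regions called in all 8 libraries had a lower mean log2 fold enrichment. Pileup there went the other way in FAK-nls, at 11.8 and 12.8 against 17.7 to 31.2 in the other 6 libraries. Bbc3 +5.0 kb (chr7:16312460-16314307), over a coding exon and a further start, was called in both libraries of FAK-WT, FAK-/- and FAK-kd with fold enrichments between 2.47 and 2.69, and in neither of FAK-nls. Bbc3 -8.6 kb (chr7:16299623-16300059) was called in the FAK-WT and FAK-/- libraries and in FAK-kd replicate 2, between 2.96 and 3.40. The p53 element of Bbc3, 7471 bp into the gene, was 1547 bp from the nearest region.

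Gdf15 had a single region over its coding exon, Gdf15 +2.1 kb (chr8:70629631-70631005). It was called at 3.78 and 3.63 in FAK-WT, 3.16 and 3.36 in FAK-/-, and 3.28 and 3.92 in FAK-kd, and in neither FAK-nls library. These 6 values, which are not centred, lay between 3.16 and 3.92. A p53 element near the start of Gdf15 was 961 bp from this region and was not covered in any library.

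**Figure D2:**
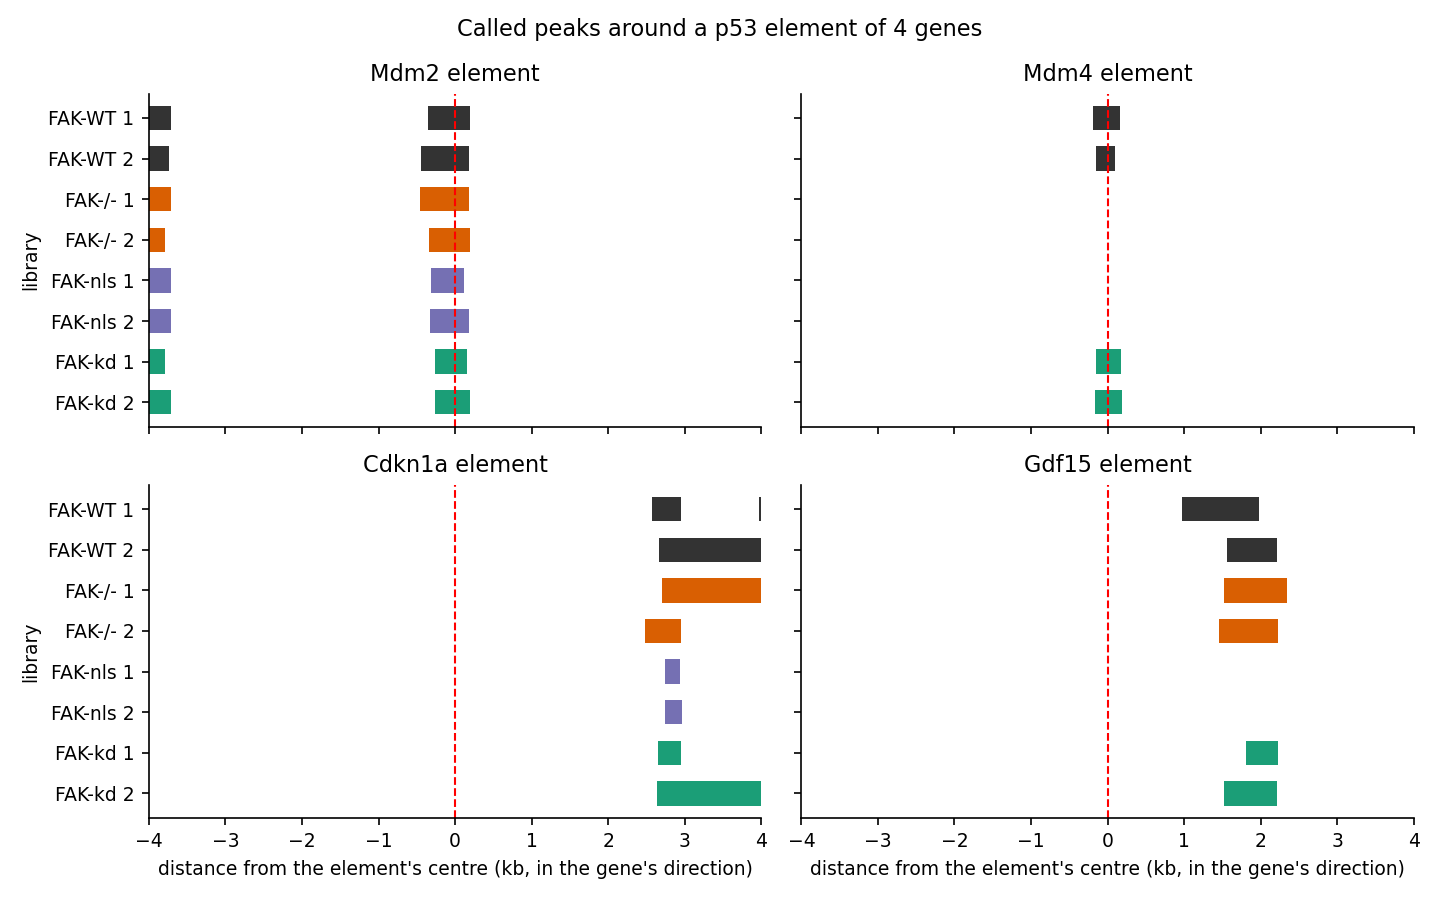
Called peaks (bars) within 4 kb of 1 p53 element (dashed line) of Mdm2, Mdm4, Cdkn1a and Gdf15, by library; the horizontal axis is the distance from the element in kb in the direction of the gene, and bars are cut at the edge of the plot. Peaks lie over the Mdm2 element in all 8 libraries and over the Mdm4 element in 4, while the Cdkn1a and Gdf15 peaks start 2466 bp and 961 bp from theirs at the nearest.

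Across the member regions, 4 of 20 held a p53 element in their central 500 bp, compared with 1.45% of all 69399 regions: Mdm2 -7.1 kb, Mdm4 +10.3 kb, Ccng1 +0.1 kb and Bax +0.2 kb. The AP-1 motif, spelled TGACTCA or TGAGTCA and searched on both strands, was in 4 of 20, namely Mdm2 -7.1 kb, Mdm4 +5.2 kb, Cdkn1a +3.6 kb and Gdf15 +2.1 kb, and in 35.3% of all regions. A match describes the letters of the window and does not show that a factor was bound. The share with a p53 element is not independent of the choice of p53 pathway genes.

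Cdkn2a and Cdkn2b lay in a long stretch of chromosome 4 without a peak. From chr4:88948907 to chr4:89469680, a stretch of 521 kb, no library had any peak. Besides Cdkn2a (chr4:89274471-89294653) and Cdkn2b (chr4:89306299-89311039) it holds Mtap, a gene of purine salvage, and has 14 annotated genes of all kinds. Counted library by library, the empty stretch was between 520782 and 527547 bp long, and FAK-nls replicate 1, with the fewest peaks, had the longest. The 1 Mb to its left held between 20 and 46 peaks per library and the 1 Mb to its right between 5 and 10. Those on the right lay between 175 and 236 kb from the 5' start of Cdkn2a, apart from a peak at 664 kb in FAK-kd replicate 2. The flank beyond them was thus also largely without peaks. The last peak on the left had fold enrichments between 3.85 and 7.35 and the first on the right between 4.84 and 6.30. All 4 lines were thus alike in having peaks on both sides and none between.

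**Figure D3:**
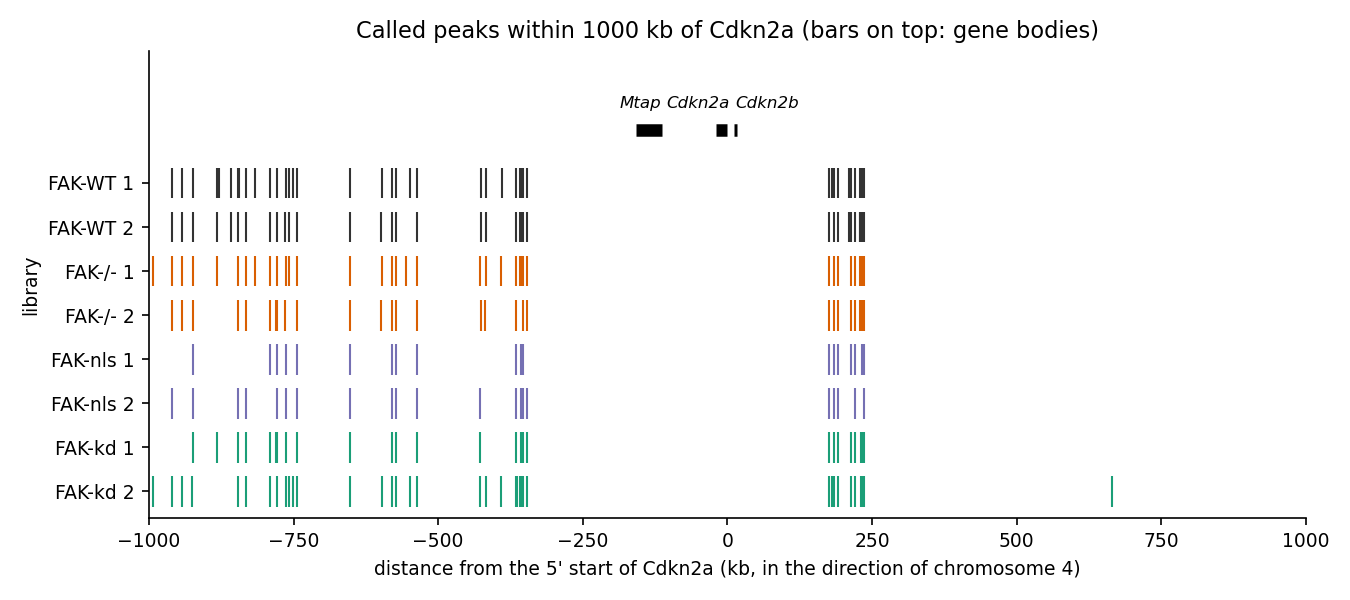
Called peaks (vertical ticks, one at the centre of each) in the 8 libraries within 1000 kb of the 5' start of Cdkn2a; the horizontal axis is the distance in kb along chromosome 4, and black bars mark the bodies of Mtap, Cdkn2a and Cdkn2b. All 8 rows are empty over the same 521 kb around the 3 genes. They are empty again from 236 kb to the right edge, apart from a peak at 664 kb in FAK-kd replicate 2.

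Stretches this long were uncommon but not unique. Of 69378 gaps between neighbouring regions, 512 (0.738%) were as long as or longer than this one, and 366 of these 512 held fewer than its 3 protein-coding starts. Of all 21911 protein-coding genes, 25.8% had no region in their window. In the reference sequence 30400 bases of the stretch are not sequenced, 33.1% is marked as repeat, against 36.4% of the genome, and its GC content is 39.1%. Both p53 elements of Cdkn2b lie in it, more than 155 kb from a called region. Closed chromatin, sequence to which reads cannot be assigned and absent DNA all give an empty stretch in a peak list, and these cannot be told apart here.

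Calls were then compared between FAK-WT and each other line. A region is WT-only when both FAK-WT libraries had a peak in it and neither library of the other line did, and reverse when both libraries of the other line did and neither FAK-WT library. With 2 libraries on each side no exact 2-sided test of a single region can go below p = 0.333, so these are counts without a test. The 3 comparisons share the FAK-WT libraries. Against FAK-/-, Mdm4 +10.3 kb was the 1 WT-only region of the 18 member regions called in at least 1 of the 4 libraries (5.56%), and 5.41% of all such regions were WT-only. None of the 18 was reverse, against 1.31% of all. The count is therefore at the level of the whole genome.

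Against FAK-nls, 6 of 17 member regions (35.3%) were WT-only, compared with 18.4% of all regions and 16.4% of those in the window of a protein-coding gene. These were Mdm4 -9.1 kb, Mdm4 +10.3 kb, Bax -8.4 kb, Bbc3 -8.6 kb, Bbc3 +5.0 kb and Gdf15 +2.1 kb. Of these, Mdm4 -9.1 kb is nearer to Pik3c2b and Bax -8.4 kb lies inside Dhdh. None was reverse, against 0.297% of all. The FAK-nls libraries had the fewest peaks and the lowest pileup, as given above, and with the 24383 strongest peaks of every library kept, 0 member regions were WT-only against FAK-nls (5.66% of all) and 1 was reverse, Cdkn1a +3.6 kb (4.87% of all). In that reduced set Cdkn1a +3.6 kb was called in neither FAK-WT library, 1 FAK-/- library and both libraries of FAK-nls and of FAK-kd. By -log10 p its FAK-WT peaks ranked 26129 (replicate 1) and 24408 (replicate 2), the second of them close to the cut at 24383.

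Against FAK-kd, none of 19 member regions was WT-only (4.76% of all) and none was reverse (0.912% of all). With equal peak numbers 0 were WT-only (3.69% of all) and Cdkn1a +3.6 kb was reverse (3.15% of all), and against FAK-/- the counts with equal peak numbers were 0 WT-only (4.11% of all) and 0 reverse (3.95% of all). Of the 8 member genes with a promoter region, Bbc3 (through Bbc3 +5.0 kb) and Gdf15 (Gdf15 +2.1 kb) had a WT-only one against FAK-nls, beside 10.1% of all genes with a promoter region, and none had one against FAK-/- or FAK-kd (2.34% and 1.89% of all). Bbc3 has another promoter region, Bbc3 +1.4 kb, that was called in all 8 libraries. The peaks at Gdf15 +2.1 kb covered no annotated start of Gdf15 and lay 1090 to 1922 bp from the nearest.

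The strength of the peaks was compared at the 8 member regions called in all libraries, by limma on log2 fold enrichment centred on each library's median, with p-values adjusted over all 17917 regions called in all 8 libraries. None of the 8 member regions passed an adjusted p of 0.05 in any comparison. Genome-wide, 3 regions were higher and 2 lower in FAK-WT than in FAK-/- (0.0167% and 0.0112%), 3 were higher and 0 lower than in FAK-kd (0.0167% and 0%), and 0 passed against FAK-nls in either direction (0%). With log2 pileup in place of log2 fold enrichment, limma called 31 regions higher and 28 lower in FAK-WT than in FAK-/-. Those numbers were 61 higher and 135 lower for FAK-nls, then 23 higher and 17 lower for FAK-kd, with no member among them. At an unadjusted p under 0.05 the counts of limma were 1375 regions against FAK-/- (7.67%), 2838 against FAK-nls (15.8%) and 1111 against FAK-kd (6.20%), and among the members 0, 2 and 0.

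**Figure D4:**
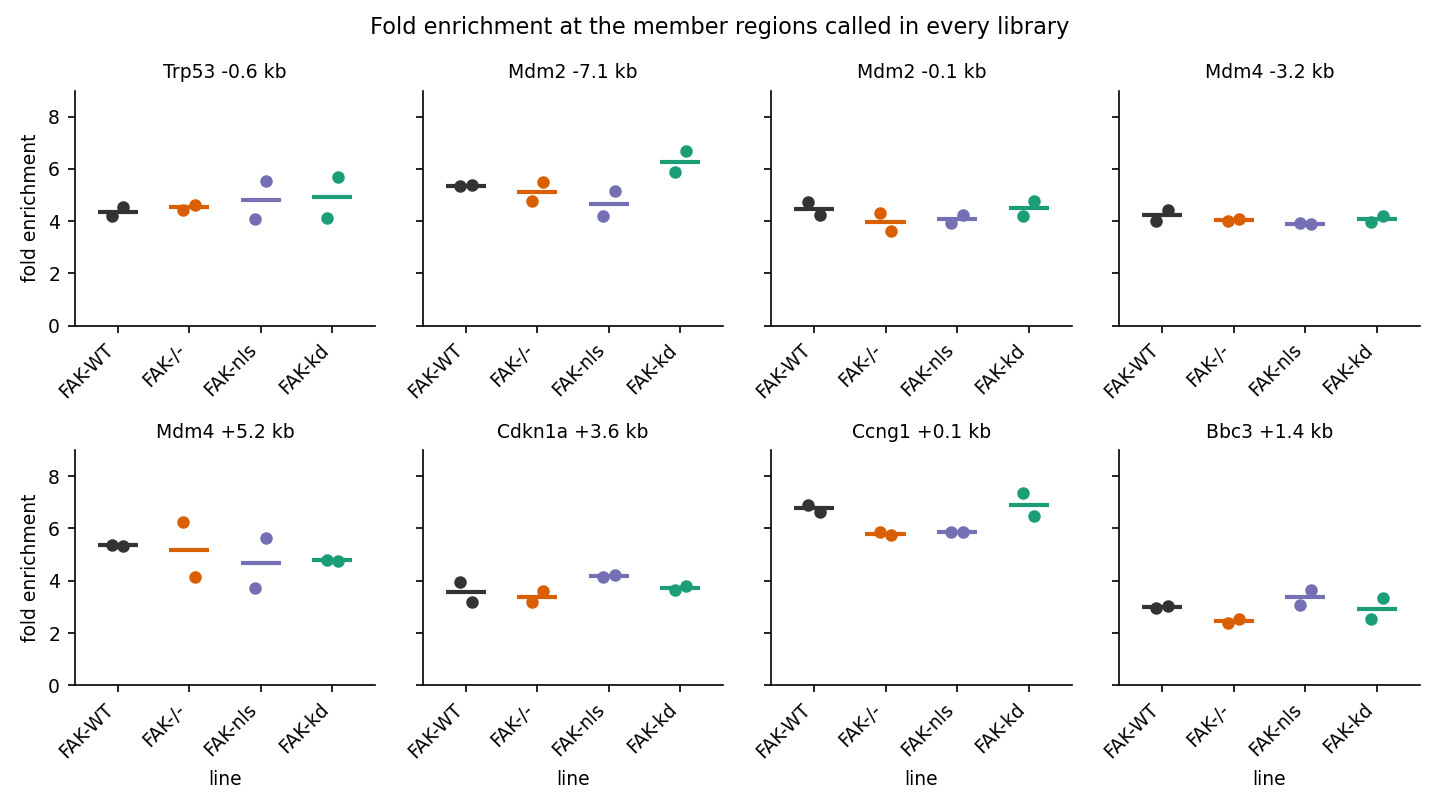
Fold enrichment (vertical axis, a ratio, from 0) at the 8 member regions called in every library; points are the 2 replicates of each line and bars their mean. The points lie between 2.37 (Bbc3 +1.4 kb) and 7.36 (Ccng1 +0.1 kb), and the FAK-nls points are above the rest at Cdkn1a +3.6 kb, where the strongest peak was not at the same position in every library.

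Both members under an unadjusted p of 0.05 had a negative difference, with the smaller values in FAK-WT and the larger in FAK-nls. Cdkn1a +3.6 kb had a log2 difference of FAK-WT minus FAK-nls of -0.42 ± 0.14 (SE, n = 2 against 2; limma, adjusted p = 0.190), and both FAK-WT libraries were below both FAK-nls libraries. This compares strongest peaks, which lay over the internal starts in FAK-WT replicate 1 and further into the gene in FAK-nls. Over the internal starts FAK-WT replicate 1 (3.97) was above both FAK-nls libraries (3.56 and 3.71) and FAK-WT replicate 2 (3.18) below them, before centring. Bbc3 +1.4 kb had a difference of -0.35 ± 0.15 (limma, adjusted p = 0.270), again with both below both, as were 27.3% of all regions tested in this comparison. It was -0.15 with quantile normalization, and the peaks of FAK-WT replicate 2 and FAK-nls replicate 2 do not overlap. On log2 pileup, centred in the same way, the difference at Cdkn1a +3.6 kb was -0.37 and that at Bbc3 +1.4 kb turned to 0.13, neither past the threshold. Trp53 -0.6 kb had a difference of -0.31 ± 0.16 (limma, adjusted p = 0.384). This value was -0.11 without FAK-nls replicate 2, -0.14 without FAK-WT replicate 1, -0.46 without FAK-WT replicate 2 and -0.50 without FAK-nls replicate 1. That of Bbc3 +1.4 kb was -0.22 without FAK-WT replicate 1, and without centring the differences of Cdkn1a, Bbc3 and Trp53 were -0.24, -0.17 and -0.13.

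The remaining differences were no nearer to the threshold. Mdm2 -7.1 kb had a difference of FAK-WT minus FAK-kd of -0.25 ± 0.15 (limma, adjusted p = 0.916), with both FAK-WT libraries below both FAK-kd libraries, as were 17.5% of all regions, and it was -0.14 without FAK-WT replicate 1. Ccng1 +0.1 kb had a centred difference from FAK-/- of 0.11 ± 0.15 (limma, adjusted p = 0.934), which was 0.03 without FAK-WT replicate 2 and 0.19 without FAK-WT replicate 1. The difference of FAK-WT minus FAK-/- at Mdm4 +5.2 kb was -0.03 ± 0.19, and it was 0.22 without FAK-/- replicate 1 and -0.29 without FAK-/- replicate 2. At Mdm2 -0.1 kb it was 0.07 ± 0.14, and 0.14 and -0.01 without the same libraries. In each comparison 3 of the 8 members had a positive and 5 a negative difference, and the median was -0.04 against FAK-/-, -0.06 against FAK-nls and -0.04 against FAK-kd, beside -0.01, -0.03 and -0.01 over all regions tested. These signs depended on the centring. Without it, Mdm2 -7.1 kb, Mdm4 -3.2 kb, Mdm4 +5.2 kb and Cdkn1a +3.6 kb turned positive against FAK-/-. Mdm2 -0.1 kb and Mdm4 -3.2 kb turned positive against FAK-nls, and no sign turned against FAK-kd. The 95% intervals of the 8 regions reached from -0.51 to 0.48 against FAK-/-, from -0.72 to 0.44 against FAK-nls and from -0.57 to 0.53 against FAK-kd, and differences within these bounds remain possible.

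The called length per gene window was compared across the 4 lines by an exact one-sided permutation test that divides the 8 libraries into 4 pairs in every possible way and cannot go below p = 0.00952. Gdf15 had 1011 and 644 bp in FAK-WT, 827 and 768 bp in FAK-/-, 0 bp in both FAK-nls libraries and 427 and 700 bp in FAK-kd. The lines took 89.2% of its variance (exact permutation p = 0.0667, adjusted p = 0.429 over 16291 genes). Bbc3 had 3017 and 2488 bp in FAK-WT, 2580 and 2826 bp in FAK-/-, 1144 and 201 bp in FAK-nls, and 2682 and 2740 bp in FAK-kd, so that both FAK-nls libraries were below the other 6 (91.1% of variance, exact permutation p = 0.143, adjusted p = 0.429). The other 6 genes had an exact permutation p of 0.181 (Mdm4) or more. None of the 8 members was under an unadjusted p of 0.05, beside 11.4% of all genes, and 0 genes (0%) passed after adjustment by this exact permutation test. With p no smaller than 0.00952, adjustment over 16291 genes can be passed only if a large share of the genes reach that value together. A single gene could not pass alone, so no conclusion is drawn from the adjusted values. The number of members under an unadjusted exact permutation p of 0.05 was 2 without FAK-kd replicate 1, 2 without FAK-kd replicate 2, 1 without FAK-WT replicate 2 and 1 with equal peak numbers, and none of them passed after adjustment.

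Other genes of the pathway were looked up in a list of 40 p53 targets and regulators. Of these, 35 had a promoter region and 32 had one in all 8 libraries, including Zmat3, Phlda3, Sesn1, Sesn2, Fas, Aen and Eda2r, which are p53 targets, and the kinases Atm, Chek1 and Chek2 that act on p53. Across all protein-coding genes 59.4% had a promoter region and 41.6% had one in all 8. The promoters of Pmaip1, Perp, Sfn, Trp63 and Trp73 were called in no library, the last of these being the relatives of p53. None of the 32 that could be tested by limma, with a promoter region in all 8 libraries, passed in any comparison, and the smallest adjusted p of limma was 0.445 against FAK-/-, 0.135 against FAK-nls and 0.714 against FAK-kd. A WT-only promoter region was found for 1 gene against FAK-/- (2.34% of all genes with a promoter region), Trp53bp1, for 4 against FAK-nls (10.1%), Trp53bp1, Pidd1, Cop1 and Usp7, and for 0 against FAK-kd (1.89%). Trp53bp1, Cop1 and Usp7 each have another promoter region that was called in all 8 libraries, while the WT-only region of Pidd1 is its single one. These 4 genes were named after their values were seen.

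Of 20 cell-cycle inhibitors and their targets, 18 had a promoter region and 15 had one in all 8 libraries. Among the kinase inhibitors, Cdkn1b (p27), Cdkn2c and Cdkn2d had a promoter peak in every library and Cdkn1c had none in any, and among the D cyclins Ccnd3 was called in all 8, Ccnd1 in 6 and Ccnd2 in none. None of the 15 that limma could test passed, with smallest adjusted p-values of 0.815, 0.220 and 0.670 against FAK-/-, FAK-nls and FAK-kd by limma. A WT-only promoter region was found for Rb1, the retinoblastoma protein, against FAK-nls, which is 1 of the 18 genes beside 10.1% of all, and for none against the other lines. Another of the 3 promoter regions of Rb1 was called in all 8 libraries.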

How the data were processed

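ATAC-seq libraries of 4 SCC lines, 2 replicates each, were grouped by their labels. The authors aligned reads to mm10 with the bcbio pipeline and called broad peaks in each library alone with MACS2 (version 2.1.1 in the submitters' processing notes, q threshold 0.05), without pooling. Between 0.784% and 3.83% of the peaks used from a library were listed with a q above 0.05. Among them was Mdm2 +13.2 kb, with a −log10 q of 1.13, and all were kept here. Per the file headers, the deposited lists give each peak's length, its pileup (coverage signal, unscaled as far as stated), its −log10 p-value and −log10 q-value, and its fold enrichment, a ratio to local background. The study calls the replicates biological. Counts per region were not used here, so a count test as in the study's methods could not be run.

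Only autosomal, X and Y peaks entered, and those sharing at least 1 bp were merged. The strongest peak gave a region's value in a library. Regions called in all 8 libraries were tested with limma 3.58.1 (R 4.3.3) on log2 fold enrichment centred on the library median, all lines in 1 fit, with Benjamini-Hochberg adjustment. A region that is not called may still be accessible below the threshold, and a list with more peaks calls more regions. Peaks at identical positions made up at most 0.0361% of a list for any 2 libraries, so each library was counted once. Genes and starts are from GENCODE on GRCm38, and sequences are from RefSeq. Other steps used Python 3.11.15 with pandas 2.3.3. Both tests and the element search were first run on simulated data. The planted line differences in called length were far larger than the spread and were scored without adjustment. The planted changes for limma were larger than any difference at a member region. These runs do not show how often smaller differences would be found.

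The members and lists were chosen with earlier results of these data known. The genes named were the 10 members, their promoter regions, regions WT-only or reverse, regions with a p53 element, the strongest region outside promoters, and up to 3 genes per wider list past the threshold (none was). The wider-list genes named in the report fall outside this rule and were chosen after their calls were seen.

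Alternatives were a −log10 q of at least 3, an equal number of peaks per library, a coverage of at least 50% of the region, peaks set to 500 bp, other gene windows, other centring, pileup, a length-weighted mean, the replicate block, fits of 4 libraries and each library left out in turn.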

Additional observations from a re-analysis of the deposited data

How the results depend on the processing

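The numbers of member regions moved with the rules for calling. Of 20 regions, 12 were left with an equal number of strongest peaks, 13 with windows of 2 kb upstream and 46 with windows of 50 kb. Of the 8 called in all libraries, 4 were left with a −log10 q of at least 3, 5 with an equal number of peaks and 4 where peaks had to cover at least 50% of a region, and windows of 50 kb gave 20. WT-only regions against FAK-/- (1) became 2 with the stricter q and 0 with equal peak numbers. Against FAK-nls (6) they became 3 and 0, and reverse regions (0) became 1 with equal peak numbers. Reverse regions against FAK-kd (0) also became 1 with equal peak numbers. Leaving out 1 library at a time gave 18 to 20 member regions, 8 called in all that remained, 1 to 3 WT-only against FAK-/-, 6 to 8 against FAK-nls and 0 to 4 against FAK-kd, and 0 to 1, 0 to 0 and 0 to 2 reverse regions. WT-only regions became 2 without FAK-WT replicate 2 and 3 without FAK-/- replicate 1 in the first comparison, and 1 without FAK-WT replicate 2 and 4 without FAK-kd replicate 2 in the last. Reverse regions became 1 without FAK-/- replicate 2, 1 without FAK-WT replicate 1 and 2 without FAK-kd replicate 1. The cause of these shifts was not tested, other than that fewer libraries make the rule easier to meet.

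No member region that could be tested passed limma in any of the alternatives run. Bbc3 +1.4 kb was not called in all libraries with the stricter q or with equal peak numbers, so it was not tested there. The same holds for Cdkn1a +3.6 kb with equal peak numbers. No member gene passed the exact permutation test of called length after adjustment, which a single gene could not do, as given above. Over all regions limma called at most 4 higher and 2 lower in any comparison under the alternatives other than pileup, whose counts are given above. Gdf15 lost its split in called length with the stricter q, where the lines took 34.0% of its variance, and had no peak with equal peak numbers. Regions with a p53 element (4) were the same number in the whole region and with equal peak numbers, and 3 with 1 mismatch. Ranked by fold enrichment, the median position in a list moved to 21.3% for Mdm2 -7.1 kb, 47.6% for Mdm2 -0.1 kb, 71.3% for Cdkn1a +3.6 kb, 9.43% for Ccng1 +0.1 kb and 98.2% for Bbc3 +1.4 kb.

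With the replicate block in limma, 0 member regions passed in each comparison. No positive pairing by replicate number was seen: over 6 pairs of lines the correlation of deviations lay between -0.228 and 0.0828. This does not show how the replicates were prepared, which the labels do not say. With the block, the smallest exact permutation p of a member's called length was 0.167, and the smallest possible was 0.0417.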
